A study of Mus musculus with 71 samples.

Results

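The 3 mutant progenitor populations collected on day 11 of differentiation were compared with one another. They comprised 9 of the 71 libraries of the study, chosen by their labels alone: genotype MUT, day 11, and population p0-p1, p2 or pMN, with 3 libraries each. Mouse embryonic stem cells had been differentiated in culture towards spinal cord progenitors with retinoic acid and SAG, a Smoothened agonist that switches on the Sonic hedgehog pathway. Chromatin accessibility was measured by CaTS-ATAC, in which the Tn5 transposase cuts and tags open chromatin in fixed cells, which are then sorted on intracellular marker proteins to give 1 population per library. All 9 libraries carry NFIAn in their titles, taken here as the fraction sorted as lacking the protein NFIA. The 9 WT libraries of day 11 used beside them carry NFIAp, so genotype and NFIA fraction cannot be told apart between them. The MUT libraries of days 5, 7 and 9 are NFIAn throughout, with 3 per population on days 5 and 7 and 2 on day 9. WT libraries of days 5, 7 and 9, shown once, are the NFIAn ones. Neither the mutated gene nor whether the line is 1 clone is given in the labels. They also leave unsaid whether replicates were grown as separate cultures, and p-values reflect spread among libraries that may be technical only.

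The ventral neural tube is patterned by Sonic hedgehog into progenitor domains that each give rise to their own class of neurons. From dorsal to ventral, the domains sampled here are p0-p1, p2 and pMN. p0-p1 and p2 progenitors make interneurons, and pMN progenitors make motor neurons first and oligodendrocyte precursors later. The homeodomain protein NKX6.1 is known from p2 and pMN and the transcription factor OLIG2 from pMN, and the sort stained for both and for the progenitor protein SOX2. NFIA is a transcription factor known from the step by which neural progenitors pass from making neurons to making glia.

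The table gives normalised reads in 155738 numbered intervals without gene names or positions, so the populations could not be checked against marker genes and intervals are named by number. The 9 libraries held 21862409 to 26491830 reads in the intervals, with a median of 24608826. An interval of median level had 31.8 normalised reads over the 9 libraries, a level at which counting error alone is 17.7%. Of the intervals, 155734 were tested. An interval was called where limma gave a Benjamini-Hochberg adjusted p under 0.05 and the difference was at least 1 on the log2(value + 5) scale, which understates differences at low levels. In a run of 5 consecutive intervals that separates the genotypes, picked after its values were seen, the 9 MUT libraries had 0 or 1 reads each and the 9 WT libraries of day 11 had 148 to 211. By the same run, 1 library used below on day 7, labelled MUT D7 pMN replicate 3, goes against its genotype label, and values that rest on it are given with and without it.

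The 9 libraries separated by population before any test. On the first principal component, which held 47.2% of the variance, the p0-p1 libraries scored -159, -133 and -136. The p2 libraries scored 41.2, 29.0 and 17.9, and the pMN libraries 134, 109 and 97.4. The order p0-p1, p2, pMN was the dorsal to ventral order, with a wide gap between p0-p1 and p2 and a narrower one between p2 and pMN. The second component, with 17.3%, set p2 (-127, -85.5 and -14.8) apart from pMN (22.6, 48.3 and 89.3), with p0-p1 at -3.26, 11.0 and 59.1. These scores are listed by replicate number and rose with it within every population, so the second component did not follow population alone. Scores on the third component, with 13.2%, fell with replicate number within every population. Libraries of the same population differed by a root mean square of 0.36 to 0.49 on the log2 scale. p2 and pMN libraries differed by 0.49 to 0.62, p0-p1 and p2 libraries by 0.56 to 0.70, and p0-p1 and pMN libraries by 0.68 to 0.80. The nearest p2 and pMN libraries were thus no farther apart than the farthest pair of p2 libraries, while p0-p1 lay outside the replicate spread of both.

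**Figure D1:**
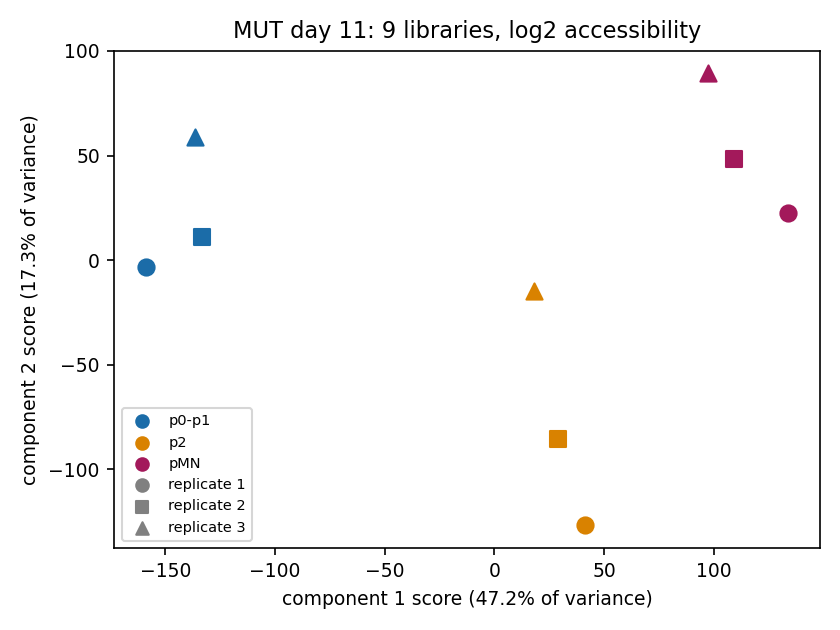
Scores of the 9 MUT day 11 libraries on the first (x axis, 47.2% of the variance) and second (y axis, 17.3%) principal components of log2 accessibility, with colour for the population and shape for the replicate number. The populations do not overlap along the first component, on which p2 (17.9 to 41.2) lies nearer to pMN (97.4 to 134) than to p0-p1 (-159 to -133).

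Over the 3 populations together, 23663 intervals differed, 15.2% of those tested (limma moderated F-test with a range of at least 1). Among them p0-p1 was highest in 12156 (51.4%), pMN in 7095 (30.0%) and p2 in 4412 (18.6%). The lowest population was pMN in 11857 (50.1%), p0-p1 in 8357 and p2 in 3449. p2 held the middle value in 15802, more often than pMN (4711) or p0-p1 (3150). The pairwise comparisons share libraries, so their counts are given side by side and no overlap between them is read as a result. At least 1 pairwise comparison called 23717 intervals. The most frequent pattern was p0-p1 above both other populations, with 4857 intervals whose medians were 37.5 normalised reads (p0-p1), 9.17 (p2) and 8.34 (pMN). The opposite pattern, p0-p1 below both, held 2494 intervals with medians of 31.2, 86.6 and 100. pMN was below both in 2306 (18.6 normalised reads against 63.6 in p0-p1 and 57.6 in p2) and above both in 630 (62.2 against 17.9 and 22.3). Nearly as frequent as the first pattern were intervals in which only pMN and p0-p1 were called apart. Of these, 4563 were higher in p0-p1, with medians of 41.1 (p0-p1), 24.9 (p2) and 14.7 (pMN). Another 4238 were higher in pMN, with 27.7, 47.8 and 71.8. A stepwise order with every pair called held 141 intervals falling and 40 rising from p0-p1 through p2 to pMN. Both steps had to reach 1, so only intervals in which pMN and p0-p1 differed by at least 2 could enter. Of these, 1381 were called lower and 358 higher in pMN, so the small counts follow in part from the threshold.

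p2 was compared with p0-p1, the step at which NKX6.1 appears. There were 10135 called intervals (6.51% of those tested), of which 3983 (2.56%) were more accessible and 6152 (3.95%) less accessible in p2. Lower calls made up most of the large differences, as 703 of the 790 differences of at least 2 on the log2 scale were lower in p2. The 2 directions also differed in where they started. Intervals lower in p2 had median levels of 36.7 normalised reads in p0-p1 against 9.65 in p2, and in 2336 (38.0%) all 3 p2 libraries were under 10. Intervals higher in p2 went from a median of 26.3 to 71.9, and all 3 p0-p1 libraries were under 10 in 494 (12.4%). pMN, which took no part in this comparison, had a median of 65.0 in the intervals higher in p2 and 9.69 in those lower. The libraries did not overlap in 3867 of the called higher and 6046 of the called lower intervals. Over all tested intervals 31.8% had no overlap between the groups, 16.1% with p2 above and 15.7% with p2 below. Intervals were also split into 4 equal classes by their level in the libraries outside these 9. Those libraries hold the same populations on other days and in WT. An interval open in p0-p1 alone can thus fall into a weak class through the same difference. In the weakest class, up to a level of 14.9, 2.70% were higher and 7.72% lower in p2, and in the strongest, above 91.2, 1.78% and 1.15%. A minimum mean of 30 over the 9 libraries themselves gave 2862 higher and 1956 lower, but the difference itself enters that mean. Without p2 replicate 3 there were 6032 higher and 6272 lower calls. With a pseudocount of 20 the count was 3470.

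Interval_90990 had the largest gain among intervals of at least median level without overlap between the groups. It had 6.85, 18.8 and 17.0 normalised reads in the p0-p1 libraries and 173, 137 and 132 in the p2 libraries. All p2 libraries were far above all p0-p1 libraries, and pMN, at 135, 111 and 108, overlapped p2. The difference was 3.04 on the log2 scale (SE 0.26, limma, Benjamini-Hochberg adjusted p = 1.03e-13). Interval_73937 was nearly closed in p0-p1, at 7.70, 5.37 and 3.58, and had 84.5, 78.3 and 61.5 in p2. Here too pMN was open, at 112, 99.9 and 98.0. Interval_56322 went from 25.7, 25.1 and 17.9 in p0-p1 to 212, 177 and 184 in p2, a difference of 2.82 (SE 0.23). It kept about this difference on every earlier MUT day, 2.64 on day 5, 3.09 on day 7 and 3.14 on day 9, whereas Interval_73937 had -0.44, -0.09 and 0.91 on these days.

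The largest losses were present in p0-p1 alone. Interval_145463 had 290, 218 and 266 normalised reads in p0-p1, 4.02, 10.5 and 12.8 in p2, with 6.54, 9.80 and 12.1 in pMN. Both ventral populations were close to closed and overlapped each other, and the p2 difference from p0-p1 was -4.27 (SE 0.26, limma, Benjamini-Hochberg adjusted p = 2.98e-20). On day 5 this interval was open in every population, at 1165 ± 63.3 in p0-p1, 290 ± 35.1 in p2, and for pMN 110 ± 5.16 (SD, n = 3 each). Interval_7788 had 306, 257 and 388 in p0-p1 and 13.1, 17.2 and 21.1 in p2. Interval_104169 had 289, 288 and 428 in p0-p1 and 13.1, 24.8 and 22 in p2. The log2 differences were -3.86 and -3.78, and pMN stayed at or under 22.4 in both intervals.

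pMN was compared with p2, the step at which OLIG2 appears. This was the smallest of the contrasts and the most one-sided: 5478 intervals were called (3.52% of those tested), 1018 (0.654%) more accessible and 4460 (2.86%) less accessible in pMN. Among differences of at least 2 on the log2 scale, 148 were lower and 11 higher in pMN. Intervals lower in pMN had medians of 53.3 normalised reads in p2 and 17.7 in pMN, and p0-p1 was also open there at 44.7. Intervals higher in pMN had medians of 19.6 in p2 and 53.3 in pMN, with p0-p1 at 19.8. By median level p0-p1, which took no part in this comparison, thus stood with p2 in both directions. The libraries of the groups did not overlap in 978 of the higher and 4345 of the lower calls, against 24.7% of all tested intervals (11.7% higher and 13% lower). Of the calls 18.6% were higher in pMN, and this share ranged from 14.5% to 23.1% over the other scalings. Single pMN libraries moved it more: there were 517 higher calls without pMN replicate 1 (9.97% of the calls) and 1671 without pMN replicate 3 (29.2%). A pseudocount of 20 left 1825 calls.

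Among the pMN gains, Interval_57103 had 8.05, 12.4 and 10.1 normalised reads in p2 and 111, 110 and 104 in pMN. p0-p1 was as low as p2, at 9.41, 11.6 and 7.17, so it was open in pMN and near closed in both other populations. The log2 difference was 2.91 (SE 0.29, limma, Benjamini-Hochberg adjusted p = 6.73e-11), against 0.04 on day 5 and 1.69 on day 9. Interval_82857 went from 25.1, 22.9 and 30.3 in p2 to 200, 183 and 173 in pMN, a log2 difference of 2.62 (SE 0.41), and had 3.06 on day 9. Interval_130526 had 21.1, 11.5 and 12.8 in p2 and 113, 85.2 and 89.6 in pMN. Its day 11 difference of 2.35 stood beside 0.23 on day 9 and 1.26 in WT on day 11, where even the p0-p1 libraries had 190 to 255.

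The pMN losses differed in what p0-p1 did. Interval_71256 was open in both other populations, with 180, 168 and 174 normalised reads in p0-p1 and 91.5, 88.8 and 77.1 in p2. It had 6.54, 13.7 and 10.3 in pMN. The 3 groups did not overlap, and the pMN difference from p2 was -2.61 (SE 0.25, limma, Benjamini-Hochberg adjusted p = 2.09e-11). Interval_140035 was highest in p2, at 216, 225 and 110, with p0-p1 at 77.0, 58.2 and 18.8 and pMN at 19.6, 23.5 and 23.3. The third library was the lowest in p0-p1 and in p2, where the pMN libraries were even. Interval_86040 had 78.4, 79.2 and 64.2 in p2, 36.8, 37.6 and 17.0 in p0-p1 and 5.45, 9.80 and 7.46 in pMN.

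pMN and p0-p1, the outermost of the sampled domains, differed in 19288 intervals (12.4% of those tested), with 7405 (4.75%) more accessible and 11883 (7.63%) less accessible in pMN. Intervals higher in pMN had medians of 27.5 normalised reads (p0-p1), 55.3 (p2) and 79.2 (pMN). Those lower had 43.3, 20.7 and 12.0, and in 3923 of them (33.0%) every pMN library was under 10. Over 100 normalised reads in pMN were reached by 42.2% of the higher intervals, against 24.7% of all tested intervals. The same pMN libraries chose these intervals, so a larger share follows in part from the choice. In the libraries outside these 9 their median level was 31.7, against 31.4 for all tested intervals. The libraries did not overlap in 7300 of the higher and 11708 of the lower calls, against 40.8% of all tested intervals (20.3% higher and 20.5% lower). Lower calls outnumbered higher ones in each of the 4 classes of level in the other libraries, from 10.8% against 4.71% in the weakest class through 8.01% against 4.74% and 7.59% against 5.81% to 4.13% against 3.76% in the strongest. Those other libraries hold the same populations, as said above. A minimum mean of 30 over the 9 libraries themselves gave near equal counts, 5237 higher and 5256 lower, but the difference itself enters that mean. A pseudocount of 20 gave 7942 calls.

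Interval_74246 had the highest level of the named intervals and stepped up over the populations. It had 91.6, 96.7 and 80.6 normalised reads in p0-p1, 636, 500 and 501 in p2, with 1638, 1522 and 1340 in pMN. No 2 groups overlapped, and pMN exceeded p0-p1 by 3.99 (SE 0.24, limma, Benjamini-Hochberg adjusted p = 1.04e-20). Interval_10132 followed the same order, with 25.7, 34.0 and 31.4 in p0-p1, 122, 88.8 and 112 in p2, with 431, 346 and 423 in pMN. Interval_73937, named above for p2, was also among the largest gains here. Among the losses, Interval_82616 had 288, 253 and 402 in p0-p1, 21.1, 18.1 and 22 in p2, with 8.72, 7.84 and 15.9 in pMN. Its difference between pMN and p0-p1 was -4.34 (SE 0.32, limma, Benjamini-Hochberg adjusted p = 7.09e-17). The other large losses were Interval_145463 and Interval_7788, at -4.19 and -3.93.

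**Figure D2:**
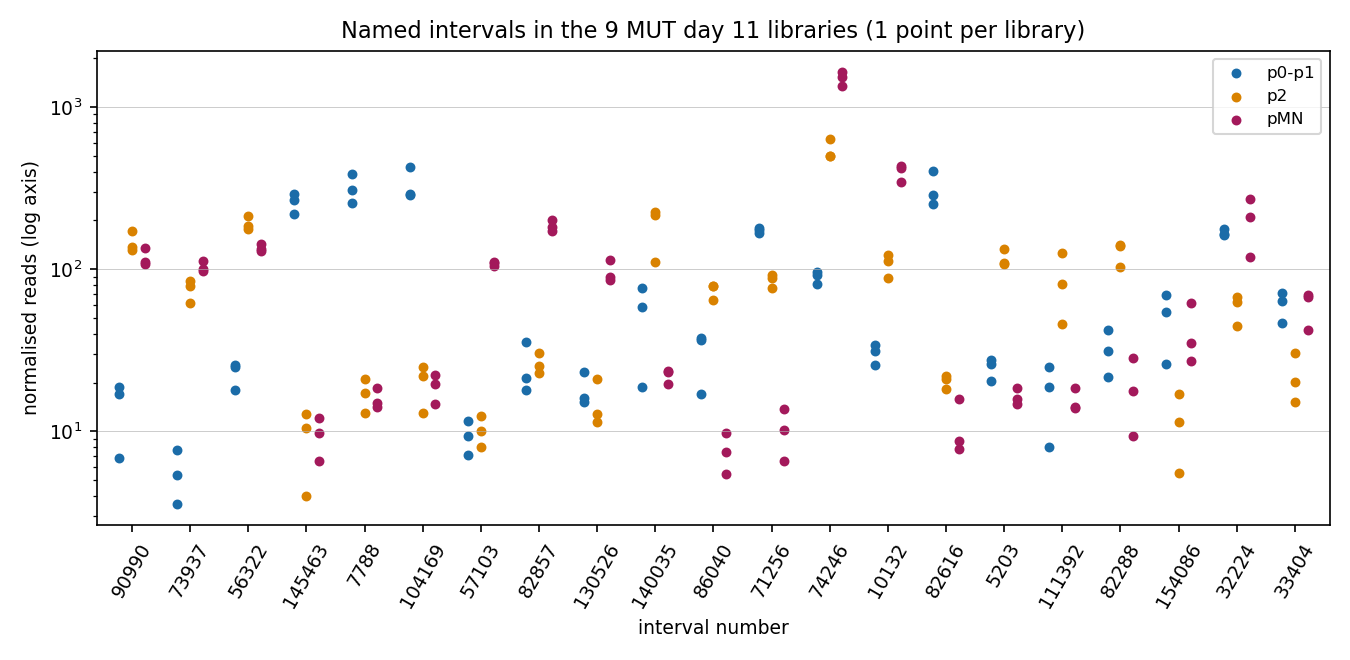
Normalised reads (y axis, log scale) of the intervals named for the pairwise comparisons and for p2 (x axis, interval number) in each of the 9 MUT day 11 libraries, 1 point per library, coloured by population. Interval_145463, Interval_7788 and Interval_104169 are high in p0-p1 and low in both ventral populations, and Interval_74246 goes from 80.6 to 96.7 in p0-p1 to 1340 to 1638 in pMN.

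p2 lay nearer to pMN than to p0-p1 in the intervals that separated those 2. On a scale from 0 at p0-p1 to 1 at pMN, set by the log2 group means of each interval, the median position of p2 was 0.66 over the 7405 higher intervals, with 0.52, 0.66 and 0.80 for the p2 libraries taken singly. It was 0.63 over the 11883 lower intervals, with 0.58, 0.63 and 0.67 for the single libraries. The intervals did not all sit at that middle value. Among those lower in pMN, with the scale divided into 3 equal parts, p2 was in the part next to pMN in 5579 (46.9%) and in the part next to p0-p1 in 2894 (24.4%). Among those higher, the shares were 48.3% and 13.5%. Earlier days were read only in the intervals whose pMN and p0-p1 means also differed by at least 1 in the same direction on that day, so each day has its own set. On MUT day 5 the median position was 0.46 over 990 higher and 0.50 over 1453 lower intervals, where the same intervals had 0.61 and 0.72 on day 11. On day 7 it was 0.36 and 0.41 (0.37 and 0.41 without the library in doubt), nearer to p0-p1, against 0.52 and 0.58 on day 11 (0.53 and 0.58). On day 9 it was 0.39 over 1679 and 0.51 over 5475 intervals, against 0.61 and 0.61. WT on day 11 had 0.76 over 4147 and 0.77 over 8287 intervals, against 0.65 and 0.70 in MUT. These positions are descriptions, with no test.

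In 472 intervals (0.303% of those tested) p2 was called above both neighbours, and in 44 (0.0283%) below both. The 472 had medians of 18.7 normalised reads (p0-p1), 58.5 (p2) and 16.7 (pMN). Interval_5203 had 110, 134 and 108 in p2, against 27.4, 20.6 and 26 in p0-p1 and 18.5, 14.7 and 15.9 in pMN. p2 stood clear of both, by 2.04 (SE 0.24) from p0-p1 and by 2.51 (SE 0.24) from pMN on the log2 scale (limma, Benjamini-Hochberg adjusted p = 2.87e-09 and 2.53e-11). Interval_82288 had 139, 141 and 103 in p2, at most 41.9 in p0-p1 and at most 28.3 in pMN. Interval_111392 was less even, with 126, 81.2 and 45.9 in p2, at most 24.8 in p0-p1 and at most 18.6 in pMN. In that interval the third p2 library was the lowest and still above every library of the other populations.

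The excess in p2 was not seen on day 5 of MUT. The 472 intervals were then weak everywhere, with medians of 5.55 (p0-p1), 8.92 (p2) and 15.0 (pMN). On that day 0 of them were called with p2 above both, where 11 of all tested intervals were (0.00706%). Without regard to the threshold 78 (16.5%) had p2 above both, a share not counted over all tested intervals. On day 7 the medians were 10.5, 23.8 and 11.3 (10.6 without the library in doubt), and p2 was called above both in 94 (19.9%, background 0.312%), or 89 (18.9%, background 0.278%) without it. The median excess of p2 over pMN that day was 0.69 on the log2 scale with and without it. On day 9 they were 15.7, 57.0 and 15.6, with 261 called (55.3%, background 0.844%). The day 9 libraries, which lay outside the day 11 means but shared in the estimate of spread, thus had about the p2 level of day 11. In WT on day 11 p2 had a median of 34.4, with 16.1 in p0-p1 and 12.9 in pMN. There 122 (25.8%, background 0.217%) were called above both. Without regard to the threshold 97.5% had p2 above both, a share that was not counted over all tested intervals.

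**Figure D3:**
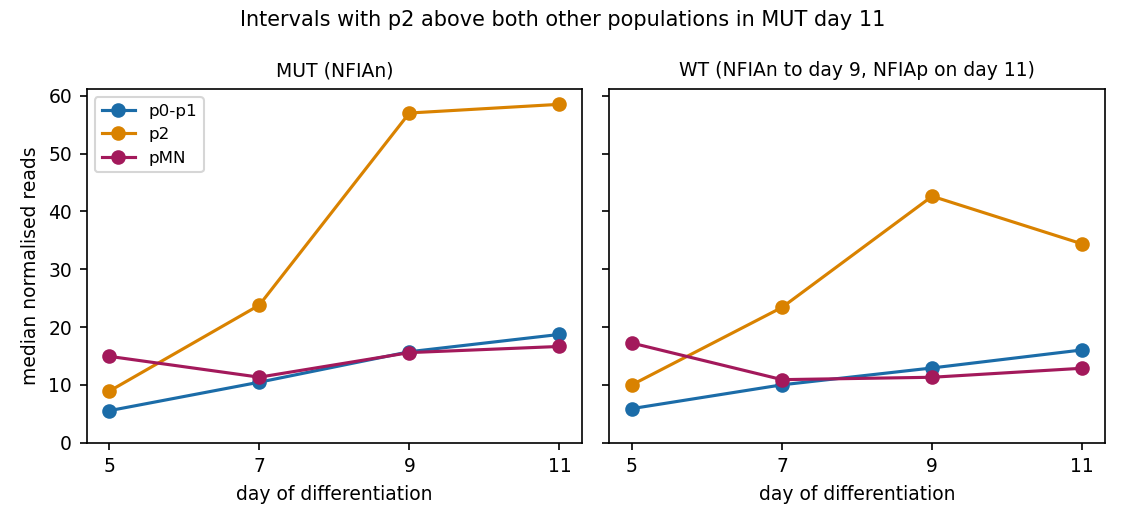
Median normalised reads (y axis) of the 472 intervals in which p2 exceeded both other populations in MUT on day 11, by day of differentiation (x axis), in MUT (left) and WT (right), with 1 line per population drawn from NFIAn libraries except on WT day 11, which is NFIAp. The day 11 MUT differences chose the intervals, with the other libraries sharing in the estimate of spread. The p2 median goes from 8.92 on day 5 to 57.0 on day 9 in MUT and from 10.0 to 42.6 in WT. Each genotype's day 7 pMN median includes 1 library that goes against its genotype label (11.3 with and 10.6 without it in MUT, 10.9 and 10.5 in WT).

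The 44 intervals low in p2 had medians of 49.0 (p0-p1), 15.4 (p2) and 51.8 (pMN). Interval_32224 had 162, 164 and 178 normalised reads in p0-p1, 62.4, 67.8 and 45.0 in p2, with 269, 209 and 118 in pMN. p2 was below every library of the others, although pMN spread widely. Interval_33404 had 71, 46.6 and 63.6 in p0-p1, 20.1, 15.3 and 30.3 in p2, with 69.7, 67.6 and 42.0 in pMN. Interval_154086 had 69.3, 54.6 and 26 in p0-p1, 17.1, 11.5 and 5.50 in p2, with 62.1, 35.3 and 27.1 in pMN. The third library was the lowest in every population. These were smaller differences, and with a pseudocount of 20 neither Interval_33404 nor Interval_154086 was still called in both comparisons. In WT on day 11 p2 was called below both in 17 of the 44 (38.6%, background 0.216%), and on MUT day 9 in 1 (background 0.0148%).

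The day 11 differences were followed back in time in MUT, using libraries outside the day 11 means that chose the intervals. These libraries did share in the estimate of spread behind the calls, as all 71 libraries were fitted together. On day 11, shown beside them, every difference is at least 1 in size by the choice itself. Intervals less accessible in pMN than in p2 on day 11 had the opposite tendency on day 5, with a median log2 difference of 0.25, against -0.05 for all tested intervals. On that day 815 of the 4460 (18.3%) were called higher in pMN, where 6.12% of all tested intervals were, and 172 (3.86%, background 0.876%) were called lower. The median was -0.66 on day 7 with and without the library in doubt (1324 called lower, 29.7%, background 2.55%, or 28.3% and 2.48% without it), and -1.22 on day 9, when 2742 (61.5%, background 3.86%) were called lower, 45.6% of all calls in that direction on day 9. Median levels show both sides of the change. pMN had 22.3 normalised reads on day 5, 21.1 on day 9 and 17.7 on day 11, while p2 had 16.5, 62.8 and 53.3 and p0-p1 10.8, 40.6 and 44.7. The medians of p2 and p0-p1 were thus higher on days 9 and 11 than on day 5, whereas that of pMN lay between 17.7 and 22.3 on days 5, 9 and 11.

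Intervals more accessible in pMN than in p2 had medians above 0 on every day: 0.41 on day 5, 0.53 on day 7 (0.57 without the library in doubt), 0.78 on day 9 and 1.16 on day 11. The level in pMN was 20.0 normalised reads on day 5, 33.9 on day 9 and, in the libraries that chose the intervals, 53.3 on day 11. p2 had 13.6, 14.5 and 19.6. The single intervals did not all share that sign: 782 of the 1018 (76.8%) had it on day 5 and 938 (92.1%) on day 9. Such shares were not counted over all tested intervals. On day 5, 204 (20.0%, background 6.12%) and on day 7, 277 (27.2%, background 2.25%, or 27.0% and 2.33% without that library) of the 1018 were called higher. On day 9, 340 (33.4%, background 1.32%) were called higher, which was 16.6% of the calls of that day in this direction.

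Over days 5, 7 and 9 the medians of p2 against p0-p1 lay farther from 0 on each later day. The day 11 values chose the intervals, so the step from day 9 to day 11 is not read as a change. Intervals lower in p2 had medians of -0.10 on day 5, -0.33 on day 7, -0.79 on day 9 and -1.33 on day 11. The p0-p1 level was 10.4, 14.6, 24.6 and 36.7 normalised reads on these days, while p2 stayed at 9.08, 9.64, 10.3 and 9.65. Called in the same direction were 446 (7.25%, background 0.929%) on day 5 and 680 (11.1%, background 1.08%) on day 7. On day 9, 1582 (25.7%, background 1.55%) were called, 65.7% of the 2407 calls in that direction on that day. Intervals higher in p2 had medians of 0.21, 0.24, 0.45 and 1.20. In them p2 had 30.6 on day 9 and 71.9 on day 11, and p0-p1 had 18.1 and 26.3. Called in the same direction were 298 (7.48%, background 2.44%), 447 (11.2%, background 1.72%) and 699 (17.5%, background 1.91%) on days 5, 7 and 9. Groups of day 9 hold 2 libraries, so fewer calls there do not show smaller differences.

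The outer populations showed both movements. Intervals lower in pMN than in p0-p1 had medians of -0.06 on day 5, -0.45 on day 7 with and without the library in doubt, -0.94 on day 9 and -1.35 on day 11. On day 5, 1847 (15.5%) were called in the opposite direction, where 11% of all tested intervals were called higher in pMN, and 1453 (12.2%, background 4.6%) in the same one. Intervals higher in pMN had medians of 0.11, 0.17 (0.18 without that library), 0.59 and 1.25, and pMN levels of 19.1 normalised reads on day 5, 33.8 on day 9 and 79.2 on day 11. On day 7 the lower intervals had 2926 calls in the same direction (24.6%, background 5.67%, or 24.8% and 5.62% without the library in doubt) and the higher ones 946 (12.8%, background 5.26%, or 13.7% and 5.63%). On day 5 the higher ones had 990 (13.4%, background 11%). On day 9, 5085 of the lower (42.8%, background 5.55%) and 1588 of the higher intervals (21.4%, background 2.96%) were called in the same direction.

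**Figure D4:**
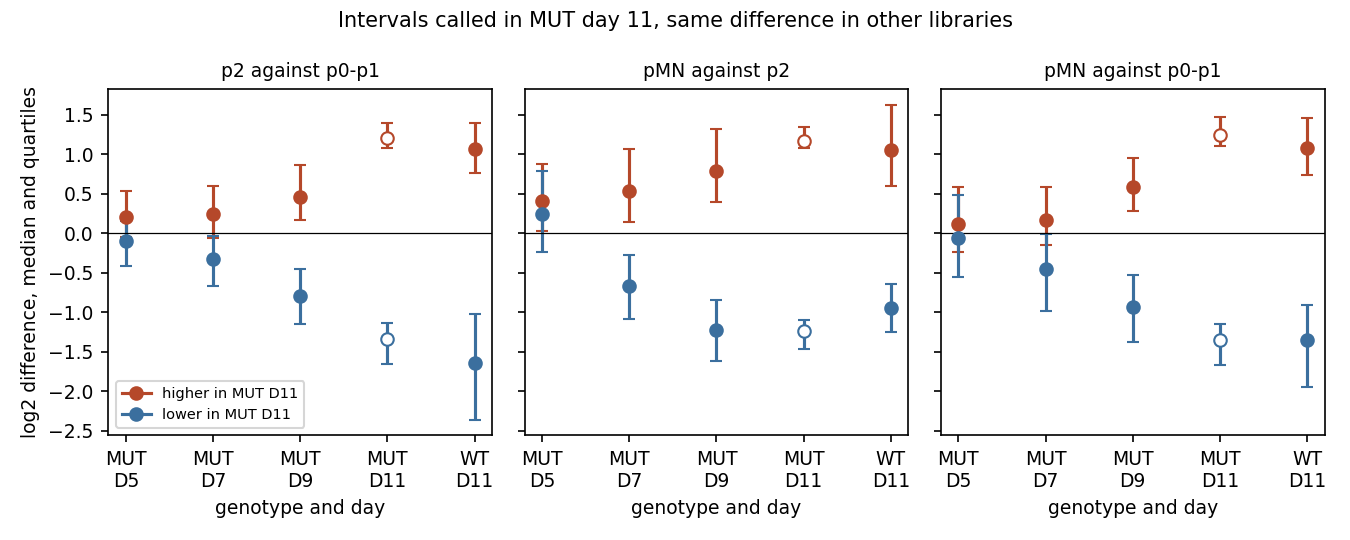
Log2 difference between populations (y axis; points are medians and bars quartiles over intervals) in MUT on days 5, 7, 9 and 11 and in WT on day 11 (x axis), for intervals called higher (red) or lower (blue) in MUT on day 11. Open points mark the libraries whose differences chose the intervals, and all day 7 libraries are included. The median of the intervals lower in pMN than in p2 goes from 0.25 on day 5 to -1.22 on day 9, and both directions of all contrasts keep their sign in WT.

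The number of differences did not follow the same course for each contrast. p2 against p0-p1 had 5252 calls on day 5 (3.37% of intervals), 4366 on day 7 (2.8%), 5380 on day 9 (3.45%) and 10135 on day 11, and the share of them higher in p2 was 72.4%, 61.3%, 55.3% and 39.3%. pMN against p2 had 10896 (7%), 7475 (4.8%), 8055 (5.17%) and 5478, with 87.5%, 46.9%, 25.4% and 18.6% higher in pMN. pMN against p0-p1 had 24248 (15.6%), 17025 (10.9%), 13247 (8.51%) and 19288, with 70.5%, 48.1%, 34.7% and 38.4% higher in pMN. On day 7 without the library in doubt the counts were 4385, 7485 and 17515, of which 2689, 3621 and 8761 were higher.

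**Figure D5:**
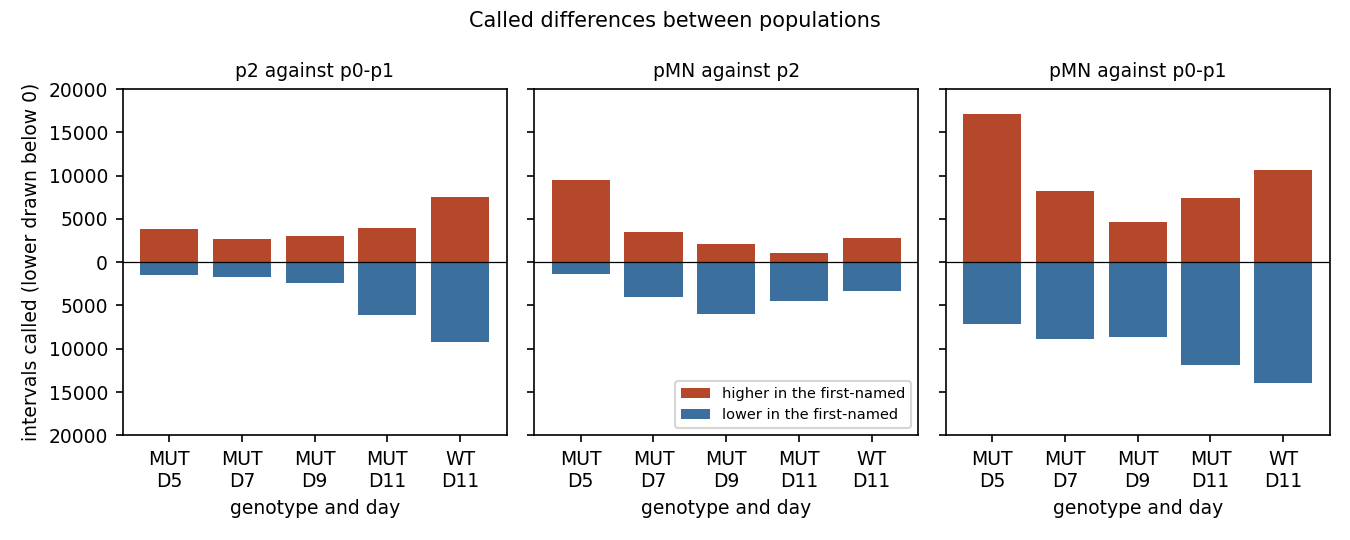
Number of intervals called (y axis; higher in the first-named population drawn above 0 and lower below 0) in MUT on days 5, 7, 9 and 11 and in WT on day 11 (x axis), with 1 panel per contrast. In pMN against p2 the calls pass from 9531 higher and 1365 lower on day 5 to 1018 higher and 4460 lower on day 11.

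Whether a contrast itself differed between days 11 and 5 was tested by an interaction term in limma. For pMN against p2, the difference was called in 14911 intervals (9.57% of those tested), 1928 (1.24%) of them higher and 12983 (8.34%) lower on day 11. Levels in the called intervals describe a difference for which the test chose them. In these 12983 the median levels of p2 and pMN were 18.4 and 48.0 normalised reads on day 5 and 39.7 and 21.7 on day 11. They include the same 815 counted above as called higher in pMN on day 5 and lower on day 11. For p2 against p0-p1 there were 10626 (6.82%), 2889 higher (1.86%) and 7737 lower (4.97%). The higher ones had p2 at 15.5 and p0-p1 at 25.4 on day 5, and 63.3 and 28.2 on day 11. For pMN against p0-p1 there were 37070 (23.8%), 12383 higher (7.95%) and 24687 lower (15.9%). The lower ones include the same 1847 counted above as called higher in pMN on day 5 and lower on day 11. In the last contrast the share of higher calls was 33.4% as deposited and 45.8% with quantile normalization.

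The same contrasts were read in WT on day 11. Intervals higher in p2 than in p0-p1 in MUT had a WT median of 1.06, and those lower a median of -1.64. For pMN against p2 the WT medians were 1.05 and -0.94, and for pMN against p0-p1 1.07 and -1.35. Over all tested intervals the WT medians of the contrasts were 0.03, -0.002 and 0.03, in that order. Of each list 96.7% to 99.2% lay on the same side of 0 as in MUT, a share not counted over all tested intervals. Of the 3983 intervals higher in p2 than in p0-p1, 2218 (55.7%, background 4.86%) were also called in WT, 29.3% of the WT calls. Of the 6152 intervals lower in p2, 4672 (75.9%, background 5.95%) were also called in WT, 50.4% of the WT calls. Of the 1018 higher in pMN than in p2, 533 (52.4%, background 1.76%) were called, 19.4% of the WT calls. Of the 4460 lower in pMN than in p2, 1987 (44.6%, background 2.16%) were called in WT, 59.2% of the WT calls. For pMN against p0-p1 the counts were 4147 of the higher (56.0%, background 6.82%) and 8287 of the lower intervals (69.7%, background 8.98%). WT had more calls in all 3 contrasts: 16841 (10.8%), 6105 (3.92%) and 24615 (15.8%), in the order of the MUT comparisons above. For pMN against p2 the WT count lay within the 4663 to 6894 of MUT with single libraries left out, and for the others above that range. The WT libraries were also deeper, at 24862462 to 31315134 reads against 21862409 to 26491830 in MUT. What depth did to the counts was not tested.

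The difference between MUT and WT in each contrast was tested directly, and the counts varied widely with the analysis. It was called for p2 against p0-p1 in 852 (0.547%), 315 (0.202%) higher and 537 (0.345%) lower in MUT. For pMN against p2 it was called in 116 (0.0745%), 6 (0.00385%) and 110 (0.0706%). For pMN against p0-p1 it was called in 2564 (1.65%), 869 (0.558%) and 1695 (1.09%). In these intervals, which the test chose for that difference, the population difference was mostly smaller in size in MUT, in 96.2% and 87.3% of the higher and lower intervals for p2 against p0-p1 and in 82.6% and 85.4% for pMN against p0-p1. In the 537, WT had medians of 24.5 normalised reads in p0-p1 and 80.9 in p2, and MUT 8.24 and 7.41. In the 1695, WT had 25.9 in p0-p1 and 91.2 in pMN, and MUT 11.7 and 10.4. In the 315, WT had 84.9 in p0-p1 and 8.51 in p2, and MUT 35.0 and 15.6. With library quality weights there were 3265 higher and 3347 lower intervals for p2 against p0-p1, 662 and 1410 for pMN against p2 and 4434 and 5088 for pMN against p0-p1. The counts also moved with single libraries: over leaving out each in turn they ran from 189 to 2387, from 18 to 201 and from 1229 to 3892. The lowest counts came without WT p2 replicate 1, WT pMN replicate 1 and WT pMN replicate 1. Without WT p0-p1 replicate 3 the balance turned, to 1831 higher of 2387 and 2462 higher of 3892. It also turned for p2 against p0-p1 without MUT p0-p1 replicate 1, to 760 higher and 531 lower.

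Interval_12735 had 135, 137 and 138 normalised reads in WT p2 and 104, 110 and 106 in WT pMN, with 18.5, 13.3 and 17.2 in WT p0-p1. In MUT no library of any population exceeded 7.16, so a p2 difference of 2.74 in WT stood against -0.14 in MUT, a difference of -2.87 (SE 0.37, limma, Benjamini-Hochberg adjusted p = 5.19e-06). Interval_100806 was open in all WT populations, at 328, 334 and 625 in p0-p1 and 569, 397 and 387 in pMN. MUT kept it in p0-p1, at 139, 150 and 247, and had 13.1, 19.1 and 22.9 in p2 and 7.63, 13.7 and 9.33 in pMN. The difference of pMN from p0-p1 was thus -3.57 in MUT and 0.12 in WT (difference -3.68, SE 0.43, limma, Benjamini-Hochberg adjusted p = 1.54e-07).

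Interval_111937 turned sign between the genotypes. WT had 156, 129 and 84.0 normalised reads in p2 and 365, 245 and 162 in pMN, and MUT 80.5, 103 and 43.1 in p2 and 9.81, 15.7 and 19.6 in pMN. The pMN difference from p2 was 1.00 in WT and -1.96 in MUT (difference -2.96, SE 0.40, limma, Benjamini-Hochberg adjusted p = 3.79e-05). Interval_34382 had 217, 111 and 52.6 in WT p0-p1 and at most 5.66 in WT pMN, against 67.6, 36.7 and 23.3 in MUT p0-p1 and 29.4, 18.6 and 13.1 in MUT pMN. Interval_54484 had 212, 90.8 and 47.2 in WT p0-p1 and at most 18.1 in WT p2, while MUT had 21.5 to 34.2 in p0-p1 and 15.6 to 25.1 in p2. Both WT p0-p1 groups spread over a wide range. The call of Interval_54484 was lost without WT p0-p1 replicate 1, with a difference of 1.82 (limma, Benjamini-Hochberg adjusted p = 0.056).

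Called intervals often had consecutive numbers; whether the numbers follow genome order was not given in the sources used here. The next-numbered interval was called in the same direction for 12.5% of the intervals lower in pMN than in p0-p1, against 7.63% of all tested intervals, and for 9.76% of those higher (background 4.75%). For p2 against p0-p1 the shares were 6.48% and 7.38% (background 2.56% and 3.95%), and for pMN against p2 1.47% and 7.29% (background 0.654% and 2.86%). The longest run was Interval_3786 to Interval_3796, 11 intervals all lower in pMN than in p0-p1 by 1.06 to 2.87 in size, with median levels of 77.3 normalised reads (p0-p1), 26.6 (p2) and 22.8 (pMN). Of its members 8 were also called in WT on day 11 (background 8.98%), 6 on MUT day 9 (background 5.55%) and 1 on MUT day 5 (background 4.6%). Interval_142206 to Interval_142211, a run of 6 higher in both ventral populations, had medians of 48.3 (p0-p1), 164 (p2) and 167 (pMN). On day 5 its median pMN difference from p0-p1 was -0.49 and in WT on day 11 it was 1.22. Interval_81543 to Interval_81546, 4 intervals lower in pMN than in p2, had medians of 73.2, 139 and 36.3, and all 4 were also called on MUT day 9 (background 3.86%).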

How the data were processed

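The authors deposited 1 table of signal values, whole-read counts of each interval scaled by 1 size factor for the library. The submitters' processing notes name mm10; aligner, peak caller and counting tool are not given in the sources used here. Dividing each column by its step returned whole reads within 0.01 for 100% of values. Groups and replicate numbers came from the titles and population labels. log2(value + 5) was fitted in limma 3.58.1 (R 4.3.3) with a mean over each of the 26 groups, leaving 45 residual degrees of freedom, with a mean-variance trend. Tested were intervals that reached 10 in 2 or more libraries. p-values were adjusted over all of them by Benjamini-Hochberg. The named intervals were the 3 largest in each direction of each pairwise comparison and of p2 against both, at or above the median level and without overlap, and the largest in each direction of the MUT against WT differences, with no overlap rule. The 2 longest runs per direction were also listed. Members, rules and lists were chosen with earlier results of these data known. The fits were tested on simulated counts. Figures used matplotlib 3.10.9. Alternatives were other pseudocounts, filters, scalings, library weights, fits of the compared groups, a replicate block, edgeR 4.0.16 on the whole reads, and leaving out libraries. Leaving out WT and day 5 libraries and the 3 libraries in doubt was added after seeing the data. No gene lists or sequences were used, as the table gives no positions.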

Additional observations from a re-analysis of the deposited data

Results flagged for a closer look

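The contrasts of populations in MUT on day 11 were tested against the same contrasts elsewhere, and all 6 tests found intervals in which they differed. Between MUT and WT on day 11, the difference of p2 from p0-p1 itself differed in 852 intervals, that of pMN from p2 in 116 and that of pMN from p0-p1 in 2564. Between days 11 and 5 of MUT, the same contrasts differed in 10626, 14911 and 37070 intervals. On day 11 genotype and NFIA fraction cannot be told apart. The days compared in MUT are both of the NFIAn fraction.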

How the results depend on the processing

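The population contrasts of MUT on day 11 kept their number of calls within 1.5 times under no filter, quantile normalization, equal library totals, library weights, a fit of the compared groups, a pseudocount of 1, edgeR and leaving out 1 library. Leaving out each library gave 9211 to 12304 calls for p2 against p0-p1, 4663 to 6894 for pMN against p2, 18294 to 21268 for pMN against p0-p1 and 22611 to 26002 for the 3 populations together. edgeR on whole reads gave 14952, 7699, 26745 and 31239. A pseudocount of 20 gave 3470, 1825, 7942 and 9513, and a mean of at least 30 gave 4818, 3248, 10493 and 12562, where fewer intervals were tested. A log2 difference of at least 2 left 790, 159 and 1739. In the same order, the differences from day 5 gave 5099, 8310 and 20081 with a pseudocount of 20 and 5879, 7798 and 18284 with a mean of at least 30. p2 against p0-p1 gave 16012 with library weights and 6368 with edgeR. Leaving out each library gave 7919 to 10127, 12286 to 15258 and 33870 to 37142. Equal totals moved the median difference of all intervals in the last contrast from 0.08 to -0.05. The differences between MUT and WT were the least stable counts. They were 182, 52 and 1002 with a pseudocount of 1, 146, 30 and 742 with a mean of at least 30, 6612, 2072 and 9522 with library weights, and 146, 31 and 1563 in a fit of the compared groups. A pseudocount of 20 gave 1617 and 353 for the first 2, and quantile normalization 71 for pMN against p2. Leaving out each library gave 189 to 2387, 18 to 201 and 1229 to 3892, and the cause was not tested. p2 against p0-p1 was lowest without WT p2 replicate 1. It had 353, 421 and 1291 without MUT p0-p1 replicates 3, 2 and 1, 457 and 520 without MUT p2 replicates 2 and 3, 456 without WT p0-p1 replicate 1 and 2387 without its replicate 3. pMN against p2 had 60 and 55 without MUT p2 replicates 1 and 2, 52 and 41 without MUT pMN replicates 2 and 3, 49 and 55 without WT p2 replicates 2 and 3, and 18 and 201 without WT pMN replicates 1 and 3. pMN against p0-p1 had 1229 without WT pMN replicate 1 and 3892 without WT p0-p1 replicate 3.

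Residuals of same-numbered libraries of MUT day 11 correlated at 0.04 to 0.34 (mean 0.22), with replicate 2 under 0.1. Differently numbered libraries of different populations correlated at -0.33 to 0.06. In 17 of 18 checks a library was closest to its own number. Same-numbered libraries thus shared variation that the main fits, which hold no replicate block, leave out. A replicate block gave 10169, 5551, 19295 and 23779 calls for MUT on day 11. It gave 2568, 446 and 5310 for the differences between MUT and WT, and 2056, 1142 and 5804 within the compared groups. The differences from day 5 had 14664, 17888 and 38723. None of the named intervals, medians on day 9 or in WT, or p2 positions changed sign. The balance of directions did turn in some counts: p2 against p0-p1 had more higher than lower calls with a mean of at least 30, and so did the differences between MUT and WT in both contrasts with p0-p1 without WT p0-p1 replicate 3, and that of p2 from p0-p1 without MUT p0-p1 replicate 1. Over the repeats of named intervals, 687 values kept their call and 5 lost it. Of the medians, 36 moved by less than the spread between libraries and 12 by more, and of the p2 positions 7 and 1, the last to 0.57 for lower intervals with a pseudocount of 1. Without 3 libraries of days 7 and 9 held in doubt the day 11 counts were 10154, 5521 and 19294. The doubt over the day 9 library, WT p2 NFIAp replicate 2, rests on values not shown here. An interval of median level has a counting error of 17.7%, so differences near 1 at lower levels were not always detectable.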
